A study of Homo sapiens with 56 samples.

Results

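YM155, a compound known for lowering survivin (BIRC5) expression, was set against S63845, which inhibits the MCL-1 protein, in 4 human mantle cell lymphoma cell lines. Mantle cell lymphoma is a B-cell lymphoma that typically carries high cyclin D1 (CCND1) expression. The comparison used every library labelled with YM155 alone or S63845 alone, which made 10 of the 56 poly-A RNA-seq libraries of the series. YM155 had 4 libraries, 1 in each of the lines Z138, JEKO-1, MINO-P and MINO-VR. S63845 had 6 libraries, 2 in MINO-P, 1 in MINO-VR, 1 in JEKO-1 and 2 in Z138. The labels give neither dose nor exposure time for either agent, so whether the exposures matched is not known from them, and the suffixes P and VR of the MINO names are not explained there. Nothing in the labels says that libraries of a group came from separate cultures. The p-values therefore measure the spread between these libraries, which may be technical between libraries of the same line and agent. Untreated libraries (CON) are used below for reference only, and those of MINO-P and MINO-VR carry another kind of library name than the 10 compared.

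Survivin belongs to the inhibitor of apoptosis family and also works in the chromosomal passenger complex, which steers chromosome segregation, so its transcript is normally highest in dividing cells. MCL-1 is an anti-apoptotic member of the BCL2 family that holds pro-apoptotic partners such as BAK and NOXA in check, and S63845 occupies its binding groove without being designed to change its transcription. Unfolded proteins in the endoplasmic reticulum set off the unfolded protein response, in which the sensors PERK (EIF2AK3), IRE1 and ATF6 raise the expression of chaperones and of factors that remove misfolded proteins.

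Of the 10 libraries, 2 stood apart and both were S63845 libraries: the only one of JEKO-1 and replicate 2 of MINO-P. Genes with 1 to 5 reads made up 2.27% and 2.36% of the genes with a read in these, against 10% to 14.93% in the other 8, and fewer genes had a read (13372 and 13582, against 15895 to 17224). Recovered depth was 12.08 to 21.62 M reads, with 12.08 M in the JEKO-1 library and 16.68 M in the MINO-P library. The leading genes and gene groups are also given without these 2. JEKO-1 then has no S63845 library and drops out, which leaves 7 libraries. The mantle cell lymphoma B-cell markers MS4A1, CD79A, CD79B, PAX5, CCND1, SOX11 and CD5 summed to 1699 to 4520 CPM (the reads of a gene scaled to the depth of its library) in the YM155 libraries and 2947 to 5952 CPM in the S63845 libraries. CD5 was listed at 0 in both S63845 libraries of Z138 and reached at most 30.34 CPM. T-cell markers stayed under 1 CPM in all 10 libraries, as did CSF1R, DCN and HBB. Some markers of other cell types were present at low levels: LYZ reached 11.35 CPM and CD14 2.48 CPM, both in YM155 libraries, COL1A1 57.2 and COL1A2 7.63 CPM in S63845 libraries, EPCAM 11.4 CPM and HBA1 2.46 CPM. Summed over each list, monocyte markers were at 0.17 to 12.2 CPM with YM155 and 0 to 1.65 with S63845, fibroblast markers at 1.02 to 11.1 and 2.48 to 57.2, epithelial markers at 0.70 to 13.7 and 0.78 to 11.4, and erythroid markers at 0 to 2.46 and 0 to 1.71. Their part in the results was not tested. The labels name the libraries of Z138 with and without a suffix A that they do not explain. The YM155 library, replicate 2 of S63845 and replicate 2 of CON carry it, while replicate 1 of S63845 and of CON do not.

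Which genes differed between the agents in all 4 lines was asked with a limma fit on log2(CPM + 1) with the cell line as block, so that every difference below is YM155 minus S63845 on that scale. The residual spread of this fit came from the S63845 pairs of MINO-P and Z138. It also came from how the difference between the agents varied between lines. No gene was called: of 14547 genes tested, 0 (0%) had a Benjamini-Hochberg adjusted p under 0.05, and the smallest limma adjusted p was 0.253. At an unadjusted p under 0.05 there were 2008 genes (13.8% of those tested), where 727 would be expected with no difference anywhere. Of these, 1204 (8.28%) were higher with YM155 and 804 (5.53%) were lower. YM155 lay above every S63845 library of the same line, in all 4 lines, for 1175 genes (8.08%) and below for 489 (3.36%). These genes are described below by their values and are not calls. The labels can be arranged within lines in 36 ways, so ordering alone would put a share of 0.0278 of genes on each side. The share of genes with YM155 below throughout was close to that. The median difference over all genes was 0.03, with line medians of 0.11 in MINO-P, 0.12 in MINO-VR, 0.18 in JEKO-1 and −0.20 in Z138. By line, 58.2% of all genes were positive in MINO-P, 57.2% in MINO-VR, 58.7% in JEKO-1 and 37.9% in Z138. Counts of positive list members in a line are read against these shares. Without the 2 libraries that stood apart, 0 genes were called by limma and 1590 had an unadjusted p under 0.05, of which 702 (4.83%) were higher and 888 (6.1%) lower. Gene composition moved with the split: the median transcript GC content was 43.9% in the 1204 higher genes, 55.6% in the 804 lower genes and 48.5% over all genes tested, and median transcript lengths were 4292, 2634 and 3337 bases. Across genes, the Spearman correlation of the difference with GC content was −0.42 in MINO-P, −0.19 in MINO-VR, 0.15 in JEKO-1 and −0.08 in Z138, as a description with genes not independent. With the GC trend or the length trend of each library removed, limma again called 0 genes.

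Unfolded protein response genes were higher with YM155 in all 4 line medians: 13 of 18 measured members had an unadjusted p under 0.05 with YM155 higher, against 8.28% of all genes, and 0 were lower. The median difference of the list was 0.82, against 0.03 over all genes, and 17 of 18 members were positive. For 11 of the 18, YM155 lay above every S63845 library in all 4 lines, against 8.08% of all genes. Line medians were 0.67 in MINO-P, 0.31 in MINO-VR, 1.68 in JEKO-1 and 0.87 in Z138. Without the 2 libraries that stood apart, 7 of 18 had an unadjusted p under 0.05 and the median was 0.45, with 16 positive. In that fit, 4.83% of all genes were higher at this threshold.

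The promoters of this list are shown because its members were high together. RefSeq promoter windows (GRCh38.p14, 250 bases before to 50 after each start) were found for all 18 genes, 24 windows in all. They were searched on both strands for the endoplasmic reticulum stress element, CCAAT and CCACG with 9 bases of any kind between them, and for its second form, ATTGG and CCACG with 1 base between them. Both end in CCACG, and no window of the list held both. The first was in the windows of 7 list genes (CALR, CANX, CRELD2, HSP90B1, HSPA5, PDIA6 and XBP1), or 37.5% of list windows, against 0.0769% of all 35116 windows. The second was in those of 3 (HERPUD1, HYOU1 and SDF2L1), or 12.5% against 0.0541%. Among windows of genes tested, 0.113% held the first and 0.0882% the second. The list was chosen as genes of the unfolded protein response, so its larger share follows from that choice. It is no evidence about the 2 agents. In the upstream 250 bases below, written 5′ to 3′ on the strand of the gene, capitals mark the elements on either strand. HSPA5 lies at chr9:125241344-125241593 on the minus strand, HSP90B1 at chr12:103930160-103930409 on the plus strand, HERPUD1 at chr16:56931892-56932141 on the plus strand and HYOU1 at chr11:119057206-119057455 on the minus strand.
HSPA5: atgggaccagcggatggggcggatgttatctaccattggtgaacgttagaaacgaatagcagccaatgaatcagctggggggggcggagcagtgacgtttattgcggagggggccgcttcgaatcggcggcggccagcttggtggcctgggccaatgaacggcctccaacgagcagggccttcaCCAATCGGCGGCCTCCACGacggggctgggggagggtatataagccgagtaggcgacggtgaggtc
HSP90B1: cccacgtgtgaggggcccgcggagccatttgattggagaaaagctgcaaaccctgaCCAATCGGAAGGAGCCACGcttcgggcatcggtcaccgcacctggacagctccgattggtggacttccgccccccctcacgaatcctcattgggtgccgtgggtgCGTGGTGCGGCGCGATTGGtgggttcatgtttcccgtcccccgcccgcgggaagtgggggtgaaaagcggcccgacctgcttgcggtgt
HERPUD1: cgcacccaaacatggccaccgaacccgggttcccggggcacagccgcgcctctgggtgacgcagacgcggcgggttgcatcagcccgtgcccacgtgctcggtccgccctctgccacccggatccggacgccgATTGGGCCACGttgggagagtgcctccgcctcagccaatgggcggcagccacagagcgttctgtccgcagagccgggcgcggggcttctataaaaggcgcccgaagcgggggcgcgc
HYOU1: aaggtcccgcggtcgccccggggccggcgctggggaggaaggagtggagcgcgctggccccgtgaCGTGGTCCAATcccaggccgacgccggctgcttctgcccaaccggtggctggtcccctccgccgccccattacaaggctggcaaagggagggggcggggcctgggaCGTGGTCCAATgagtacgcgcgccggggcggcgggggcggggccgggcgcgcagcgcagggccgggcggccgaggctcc
HSPA5 and HERPUD1 each held 1 element, and HSP90B1 and HYOU1 each held 2. Of the 10 list genes with either element, 8 had an unadjusted p under 0.05 with YM155 higher, with a median difference of 0.80. Of the 8 with neither, 5 did, with a median of 0.92. A match is a description of letters, not of binding.

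HSPA5, the endoplasmic reticulum HSP70 chaperone BiP, showed the largest difference of the list. Its level was 1261 CPM with YM155 against 678.5 and 534.4 CPM with S63845 in MINO-P, 1316 against 653.7 in MINO-VR, 5399 against 756.3 in JEKO-1, and 3582 against 872.4 and 1185 in Z138. The YM155 library was the highest in each line, and the 4 YM155 levels all exceeded the 6 S63845 levels. The fitted difference was 1.65 (SE 0.31, 3.13-fold, limma adjusted p = 0.27), and 1.30 without the 2 libraries that stood apart. DNAJB9 (ERdj4), a co-chaperone of BiP, was at 116.3 CPM with YM155 against 95.04 and 53.78 in MINO-P, 79.59 against 34.33 in MINO-VR, 145 against 27.64 in JEKO-1, and 460.2 against 118.5 and 137.4 in Z138. The difference was 1.48 (SE 0.28, limma adjusted p = 0.27), and the lines again did not overlap within themselves.

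DNAJC3 (p58IPK), a co-chaperone that restrains PERK, was at 108.1 CPM with YM155 against 61.58 and 56.18 in MINO-P, 72.96 against 38.33 in MINO-VR, 108.7 against 47.5 in JEKO-1, and 557 against 145.9 and 202.7 in Z138. YM155 was highest in every line, with a difference of 1.18 (SE 0.20, limma adjusted p = 0.253). EIF2AK3, the sensor kinase PERK itself, was not on the list but came first among the higher genes by p. It stood at 123.6 CPM against 79.95 and 71.95 in MINO-P, 74.58 against 32.31 in MINO-VR, 111.4 against 44.44 in JEKO-1, and 318.1 against 112.3 and 128.1 in Z138. Its difference was 1.13 (SE 0.18, 2.19-fold, limma adjusted p = 0.253), and 1.10 without the 2 libraries that stood apart.

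Other luminal chaperones and folding enzymes lay the same way. HSP90B1 (GRP94) differed by 1.08 (SE 0.26), HYOU1 (GRP170) by 1.15 (SE 0.31), DNAJB11 (ERdj3) by 1.07 (SE 0.30), the disulfide isomerase PDIA4 by 1.04 (SE 0.26) and calreticulin (CALR) by 0.94 (SE 0.26). These were 0.79, 0.71, 0.57, 0.68 and 0.75 without the 2 libraries that stood apart. With all 10 libraries, in each of these YM155 exceeded every S63845 library of the line in all 4 lines. Factors of endoplasmic reticulum-associated degradation were higher as well in HERPUD1 (0.82, SE 0.24) and SEL1L (0.81, SE 0.27), while EDEM1 was at 0.18 (SE 0.24). HERPUD1 was at 0.49 and SEL1L at 0.38 without the 2 libraries. XBP1, a transcription factor of the response measured here without its splice forms, differed by 0.52 (SE 0.27), with −0.11 in MINO-P, −0.24 in MINO-VR, 1.39 in JEKO-1 and 1.07 in Z138. SEC61B, a subunit of the protein translocation channel, was the only negative member at −0.22 (SE 0.22). MANF, a secreted stress-response protein, differed by 0.67 (SE 0.41), and by −0.04 without the 2 libraries that stood apart. Its line differences were 0.59, −0.17, 2.74 and −0.17, in the order of MINO-P, then MINO-VR, JEKO-1 and Z138.

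**Figure D1:**
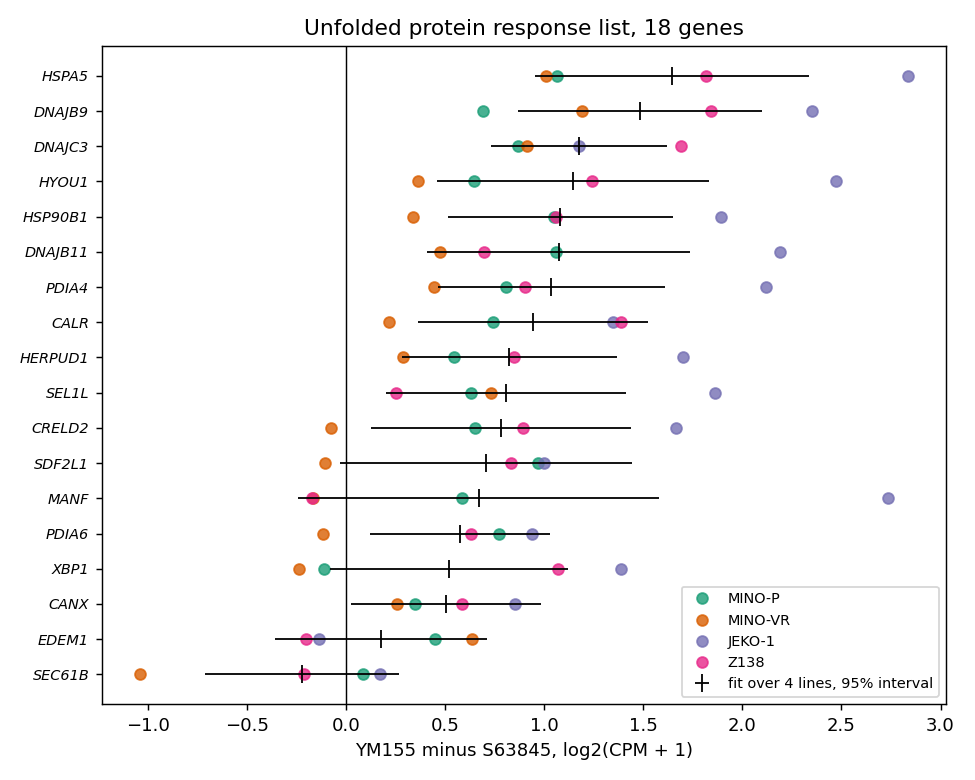
YM155 minus S63845 in log2(CPM + 1) for the 18 measured unfolded protein response genes (vertical axis), as a point per cell line and, in black, the fitted difference with its 95% interval. Most points lie right of 0, 17 of 18 in MINO-P and JEKO-1, 15 in Z138 and 12 (66.7%) in MINO-VR. Of all genes, 58.2% were positive in MINO-P, 58.7% in JEKO-1, 37.9% in Z138 and 57.2% in MINO-VR.

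Combination libraries that the fit did not use gave a smaller difference for the list. In MINO-P, IBR_YM155 minus IBR_S63845 was positive for 13 of 18 members with a median of 0.18, against 55% of all genes and a median of 0.05. In MINO-VR, BTZ_YM155 minus BTZ_S63845 was positive for 14 of 18 with a median of 0.13, against 36.5% of all genes and a median of −0.08. HSPA5 was at 917.6 against 737.3 CPM in the first pair and 2319 against 1631 CPM in the second. Each pair has 1 library a side, so no test was made, and the MINO-P IBR_S63845 library also had few genes at low read counts. Among the 1204 genes higher with YM155, 67.5% were positive in the IBR pair and 41.3% in the BTZ pair, against 55% and 36.5% of all genes. Among the 804 lower genes, 36.7% and 58.3% were negative, against 41.9% and 59.7% of all genes.

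In JEKO-1 and Z138 the untreated libraries carry the same kind of library name as the treated ones. The median unfolded protein response gene differed from CON by 1.43 with YM155 and −0.25 with S63845 in JEKO-1, and by 1.14 and 0.35 in Z138. Over all genes tested these medians were −0.03 and −0.23 in JEKO-1, and −0.12 and 0.03 in Z138. All of these differences share the CON libraries of their line. HSPA5 in CON was at 976.5 CPM in JEKO-1 and at 1065 and 758.2 CPM in Z138, under the YM155 libraries of both lines. In MINO-VR the CON library held 1237 CPM of HSPA5, close to the YM155 library's 1316, and in MINO-P it held 214.7 CPM, under all 3 treated libraries. The median level of the list, in log2(CPM + 1), was 8.48 in the MINO-VR CON library, above both the YM155 library (7.85) and the S63845 library (7.38). In MINO-P it was 7.79 in CON, between the S63845 libraries (7.96 and 7.63) and below YM155 (8.23).

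The transcripts of both targets were measured. BIRC5, survivin, was at 74.74 CPM with YM155 against 50.51 and 100.3 with S63845 in MINO-P, 10.62 against 63.23 in MINO-VR, 83.29 against 205.5 in JEKO-1, and 70.24 against 160.1 and 145.4 in Z138. YM155 was the lowest library in 3 of 4 lines and lay between the S63845 libraries in MINO-P. The difference was −1.10 (SE 0.35, 2.15-fold lower, limma adjusted p = 0.28), and −1.02 without the 2 libraries that stood apart. In the combination pairs BIRC5 had the opposite sign, at 32.23 CPM in IBR_YM155 against 18.73 in IBR_S63845 (0.75, MINO-P) and at 12.45 in BTZ_YM155 against 4.56 in BTZ_S63845 (1.27, MINO-VR), with no test. In CON, BIRC5 was at 121.4 CPM in MINO-P, 64.08 in MINO-VR, 249.6 in JEKO-1, and 158 and 189.2 in Z138. In these bulk libraries, less transcript in each cell and fewer cells that carry it cannot be told apart. MCL1 stood at 296.9 CPM against 300.2 and 275.3 in MINO-P, 303.4 against 289.5 in MINO-VR, 350.9 against 399.4 in JEKO-1, and 400.2 against 309.1 and 410.7 in Z138. The agents overlapped, and the difference was 0.04 (SE 0.17, limma adjusted p = 0.948, 95% interval −0.35 to 0.42).

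**Figure D2:**
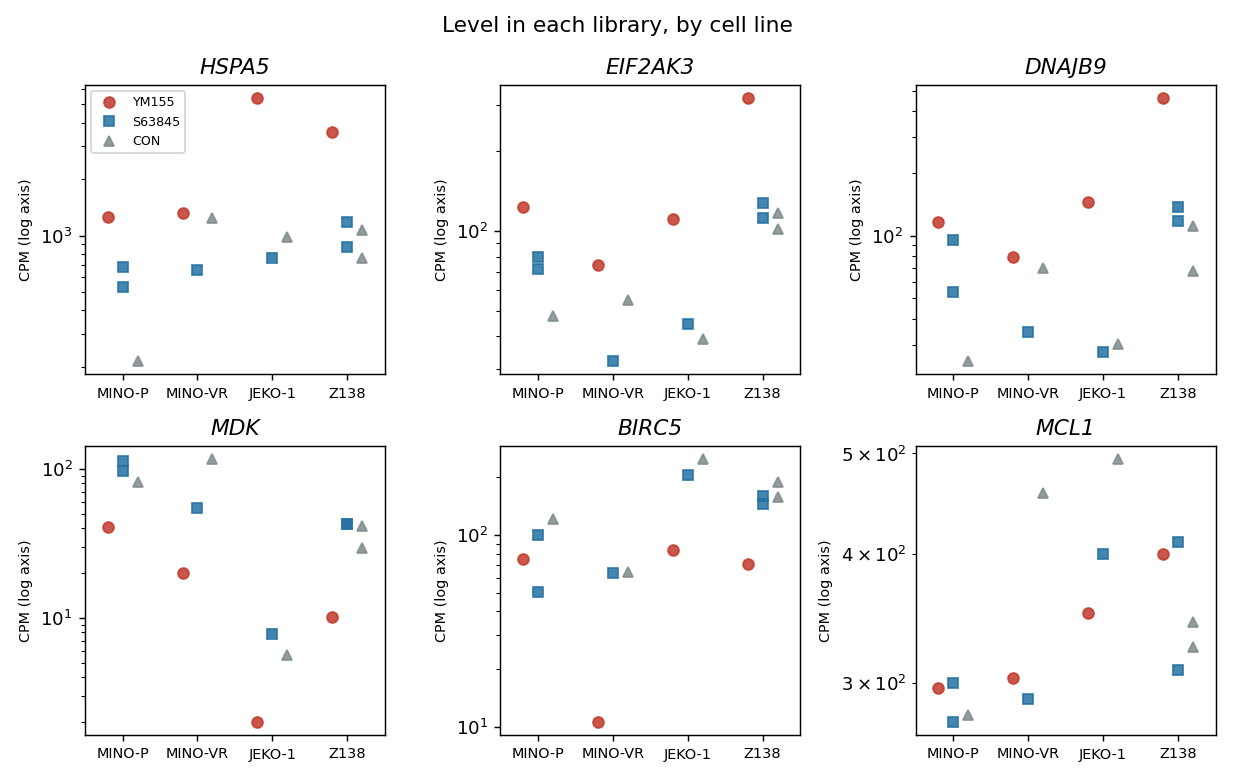
CPM on log axes (vertical) in each library of HSPA5, EIF2AK3, DNAJB9, MDK, BIRC5 and MCL1, by cell line (horizontal), with circles for YM155, squares for S63845 and triangles for CON. HSPA5, EIF2AK3 and DNAJB9 are highest with YM155 in every line, MDK is lowest, BIRC5 is lowest in 3 lines, and MCL1 overlaps.

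The other inhibitors of apoptosis had their own values. XIAP, which binds caspases, differed by 0.51 (SE 0.20, limma adjusted p = 0.318), and YM155 was above the S63845 libraries in 3 lines. Its difference was 0.365 without the 2 libraries that stood apart. BIRC2 (cIAP1) differed by 0.27 (SE 0.22). BIRC3 (cIAP2) was split by line, at 0.86 in MINO-P, 1.03 in MINO-VR, −0.82 in JEKO-1 and −1.78 in Z138, with a fitted value of −0.22 (SE 0.44). BIRC6 differed by 0.28 (SE 0.21), and the low-level genes NAIP and BIRC7 by 0.18 (SE 0.65) and −0.20 (SE 0.37). BIRC8 was not analysed here. Among the 7 members tested, 1 was higher and 1 lower at an unadjusted p under 0.05, with a list median of 0.18. Of all genes, 8.28% were higher and 5.53% lower. Without the 2 libraries that stood apart, 0 members were higher and 0 lower, against 4.83% and 6.1% of all genes, and the median was −0.10.

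In the BCL2 family, BCL2L1 (BCL-XL) was lower with YM155 in every line. It was at 52.49 CPM against 70.28 and 164.2 in MINO-P, 49.29 against 86.48 in MINO-VR, 46.08 against 51.06 in JEKO-1, and 44.48 against 97.87 and 110.5 in Z138. Its difference was −0.84 (SE 0.27, limma adjusted p = 0.28), and −0.85 without the 2 libraries that stood apart, with the smallest gap in JEKO-1. BCL2, the target of venetoclax, differed by −0.32 (SE 0.20), BCL2L2 by 0.48 (SE 0.36) and BCL2A1, which was near 0 in JEKO-1 and Z138, by 0.72 (SE 0.50). Of 9 pro-apoptotic members tested, 0 had an unadjusted limma p under 0.05, against 13.8% of all genes. At an adjusted p under 0.05 there were 0, against 0% of all genes. PMAIP1 (NOXA), the MCL-1 partner, was at −0.01 (SE 0.29), BAX at −0.38 (SE 0.21), BAK1 at 0.30 (SE 0.35), BID at −0.60 (SE 0.29), BAD at 0.21 (SE 0.30), BIK at −0.65 (SE 0.40), BMF at 0.12 (SE 0.35) and HRK at −0.05 (SE 0.47). BBC3 (PUMA) differed by 0.66 (SE 0.65), and in Z138 it was at 126.3 CPM with YM155 against 7.86 and 25.5 with S63845. BCL2L11, BOK and BCL2L10 were below the filter of 1 CPM in 2 libraries.

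SLC35F2, the transporter that carries YM155 into cells, was at 69.79 CPM with YM155 against 55.64 and 43.59 in MINO-P, 51.15 against 69.59 in MINO-VR, 131.9 against 62.97 in JEKO-1, and 27.93 against 33.46 and 33.11 in Z138. YM155 was above S63845 in 2 lines and below it in the other 2, with a difference of 0.20 (SE 0.25, limma adjusted p = 0.742). The efflux pump ABCB1 stayed at or under 1.96 CPM and was not tested.

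Among genes lower with YM155, the 8 with the smallest p that also had a lower value in all 4 lines, as the choice required, were MDK, SDC1, CCDC85B, INSM1, MARCKSL1, LRRC14B, HES6 and SOX12. MDK, the secreted growth factor midkine, was at 40.79 CPM against 96.82 and 112.4 in MINO-P, 19.98 against 54.29 in MINO-VR, 2.02 against 7.86 in JEKO-1, and 10.13 against 42.53 and 42.54 in Z138. The difference was −1.58 (SE 0.22, 2.98-fold lower, limma adjusted p = 0.253), and −1.57 without the 2 libraries that stood apart. SDC1 (CD138), a surface proteoglycan known as a plasma cell marker, was at 19.52 CPM against 39.63 and 81.13 in MINO-P, 13.62 against 48.15 in MINO-VR, 1.27 against 12.58 in JEKO-1, and 8.97 against 106.6 and 70.83 in Z138. The difference was −2.25 (SE 0.34, 4.76-fold lower, limma adjusted p = 0.253), and −2.08 without the 2 libraries that stood apart. It was the one gene called when all 56 libraries were fitted (limma adjusted p = 0.0418, from 0.0418 to 1 over its alternatives). The 4 plasma cell markers, of which SDC1 is one, had summed levels of 238.9 to 906.5 CPM with YM155 and 269.9 to 1546 CPM with S63845. Their part in the SDC1 difference was not tested.

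CCDC85B, a coiled-coil protein, differed by −1.09 (SE 0.16), LRRC14B by −1.01 (SE 0.19) and MARCKSL1, a regulator of the actin cortex, by −1.36 (SE 0.25). The transcription factors INSM1, HES6 and SOX12 differed by −1.71 (SE 0.28), −1.54 (SE 0.29) and −1.18 (SE 0.22). The limma adjusted p-values of the 8 genes were 0.253 to 0.27. All 8 were rich in GC, at 59.3% to 68.4%, against a median of 48.5% over all genes tested. The 8 named higher genes were at 39.9% to 49.5%, so both named sets followed the composition split given above. With the GC trend of each library removed, CCDC85B was at −0.85 and LRRC14B at −0.80. The part of GC content in these differences was not tested. On the higher side, the other genes named by the same rule, which required a higher value in all 4 lines, were PATL1, a scaffold of mRNA decapping (1.19, SE 0.19), SYNJ1, a phosphoinositide phosphatase of endocytosis (1.28, SE 0.24), ANXA5, the phosphatidylserine-binding annexin (0.82, SE 0.16), and PDIA3P1 (1.51, SE 0.25). PDIA3P1 is a pseudogene of the disulfide isomerase PDIA3, and the counting could have split reads between the 2, so its value is uncertain. In the IBR pair 7 of these 8 higher genes were positive and 2 of the 8 lower genes negative, and in the BTZ pair 5 and 4. Of all genes, 55% were positive and 41.9% negative in the IBR pair, and 36.5% and 59.7% in the BTZ pair.

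**Figure D3:**
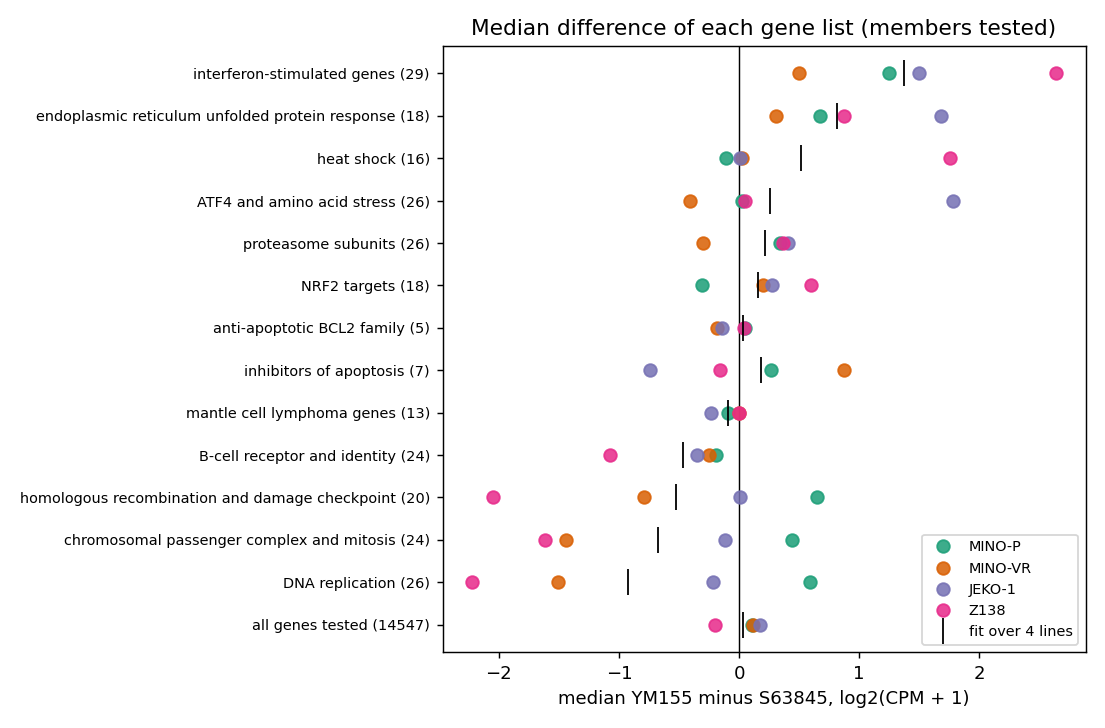
Median YM155 minus S63845 in log2(CPM + 1) (horizontal) of 13 gene lists and of all genes tested, with a coloured point per cell line and a black bar for the fit over 4 lines. Interferon-stimulated and unfolded protein response genes lie right of 0 in all 4 lines, while DNA replication runs from 0.59 in MINO-P to −2.22 in Z138. The MINO-P interferon median was 0.0 against S63845 replicate 1 and 2.72 against replicate 2, which stood apart.

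Genes of DNA replication ran in opposite directions by line. At an unadjusted p under 0.05, 14 of 26 were lower, against 5.53% of all genes, 0 were higher and all 26 fitted values were negative, with a median of −0.93. By line the median was 0.59 in MINO-P, −1.51 in MINO-VR, −0.21 in JEKO-1 and −2.22 in Z138. In MINO-P 23 of 26 members were positive, whereas in MINO-VR and Z138 0 of 26 were. Without Z138 or its YM155 library, 0 and 1 members had an unadjusted p under 0.05, and without the MINO-P YM155 library 23 did. Without the MINO-VR YM155 or S63845 library, 3 and 2 did. Without either JEKO-1 library 7 did, without either Z138 S63845 library 8, and without the 2 libraries that stood apart 5.

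RRM2, the small subunit of ribonucleotide reductase, showed this split. It was at 320.8 CPM with YM155 against 146.2 and 246.3 with S63845 in MINO-P, 28.6 against 121.6 in MINO-VR, 44.3 against 194.1 in JEKO-1, and 10.67 against 314.3 and 315.6 in Z138. YM155 was highest in MINO-P and lowest in the other 3 lines. The fitted difference was −2.04 (SE 0.68, limma adjusted p = 0.28). TYMS, thymidylate synthase, followed the same order at −1.43 (SE 0.50), as did CCNE1, cyclin E1, at −1.34 (SE 0.48). The helicase subunits MCM2 and MCM6 differed by −1.06 (SE 0.37) and −1.32 (SE 0.56). Without Z138 the values were nearer 0, at −0.95 for RRM2, −0.75 for TYMS, −0.77 for CCNE1, −0.54 for MCM2 and −0.36 for MCM6. E2F1, which activates S-phase genes, was at 67.99 CPM against 56.59 and 123.2 in MINO-P and was lowest with YM155 in the other lines, by −1.04 overall (SE 0.30, limma adjusted p = 0.27).

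The mitosis list, which holds the chromosomal passenger complex partners of survivin, had 6 of 24 members lower at an unadjusted p under 0.05, against 5.53% of all genes, and a median of −0.67. The lines were split: the median was 0.44 in MINO-P, where 23 of 24 members were positive, −1.44 in MINO-VR, −0.12 in JEKO-1 and −1.62 in Z138. The MINO-P value depended on the S63845 replicate. Against replicate 1, 24 of 24 members were positive with a median of 0.85. Against replicate 2, which stood apart, 12 of 24 were positive with a median of 0.004. Only 2 of 24 were lower without the 2 libraries that stood apart, against 6.1% of all genes in that fit. INCENP, the scaffold of the complex, differed by −0.79 (SE 0.25) and AURKB, its kinase, by −1.29 (SE 0.49). AURKB was at 7.81 CPM with YM155 against 89.66 and 62.12 in Z138 and at 37.05 against 26.57 and 34.12 in MINO-P. Without Z138, AURKB was at −0.57 and INCENP at −0.47. Of 20 homologous recombination and checkpoint genes, 3 were lower at that threshold, against 5.53% of all genes, with a median of −0.53. Here the line medians were 0.65 in MINO-P, where 19 of 20 were positive, −0.79 in MINO-VR, 0.01 in JEKO-1 and −2.05 in Z138, and 1 of 20 was lower without the 2 libraries. H2AX, the histone variant that is phosphorylated at DNA breaks, was lower in all 4 lines, by −1.42 (SE 0.37, limma adjusted p = 0.27), although in JEKO-1 only by −0.09. CDK4, the cyclin D partner, was also lower in all 4 lines, by −0.73 (SE 0.21), as was CCND1, by −0.97 (SE 0.32) and by −0.61 without Z138. CCND1 was at 562.9 CPM with YM155 against 2322 and 1816 in Z138 and at 1482 against 1664 and 2758 in MINO-P.

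In the IBR pair of MINO-P, replication genes were again higher on the YM155 side, for 26 of 26 members with a median of 0.97. Mitosis genes were higher for 24 of 24 with a median of 1.28, and 55% of all genes were positive in that pair. In the BTZ pair of MINO-VR, 16 of 26 replication genes were positive with a median of 0.08. Of the mitosis genes, 20 of 24 were positive with a median of 0.55, and of all genes 36.5% were. The single-agent medians in MINO-VR were −1.51 for replication genes and −1.44 for mitosis genes. Against CON, the median replication gene was at −2.05 with YM155 and 0.10 with S63845 in Z138, and at −1.24 and −1.02 in JEKO-1, where the differences share the CON library.

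Interferon-stimulated genes were higher with YM155, while S63845 replicates of a line lay far apart. At an unadjusted p under 0.05, 11 of 29 were higher, against 8.28% of all genes, 0 were lower and all 29 fitted values were positive, with a median of 1.37. The antiviral sensor IFIH1 (MDA5) was at 288.1 CPM against 221.5 and 88.44 in MINO-P, 204.9 against 132.8 in MINO-VR, 195.3 against 82 in JEKO-1, and 193.7 against 25.3 and 80.07 in Z138. YM155 was highest in each line, by 1.29 (SE 0.38, limma adjusted p = 0.27). IFIT1, an inhibitor of viral RNA translation, was at 175 CPM with YM155 in MINO-P, where the S63845 replicates stood at 188.2 and 2.34. In Z138 it was at 37.13 CPM with YM155 and at 0.0755 and 18.08 with S63845, so in log2(CPM + 1) the S63845 replicates of both lines lay farther apart than the agents did.

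The median level of the 29 genes was 7.52 with YM155 in MINO-P, against 7.75 and 5.05 with S63845, and 6.71 against 1.28 and 5.82 in Z138, in log2(CPM + 1). In MINO-VR it was 7.68 against 6.93 and in JEKO-1 7.33 against 6.32. The median member difference in MINO-P was 0.0 against S63845 replicate 1, with 15 of 29 positive. Against replicate 2, which stood apart, it was 2.72, with 29 of 29 positive. Without the 2 libraries that stood apart 0 of 29 had an unadjusted p under 0.05, although 28 stayed positive with a median of 1.13. The count was 1 without either JEKO-1 library or the Z138 YM155 library, 5 without the MINO-P YM155 library, 21 without replicate 1 of S63845 in MINO-P, 7 without replicate 2, 12 without replicate 1 of S63845 in Z138 and 20 without replicate 2. In Z138 the library with the suffix A was the higher one in both S63845 and CON, whose medians were 2.09 and 4.53. Against the S63845 library with the same suffix as YM155, the median member difference in Z138 was 1.03, with 27 of 29 positive, and against the other 4.43. Whether the suffix marks a shared preparation is not stated, and its part was not tested. In CON of MINO-VR the median level was 8.08, above both treated libraries.

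**Figure D4:**
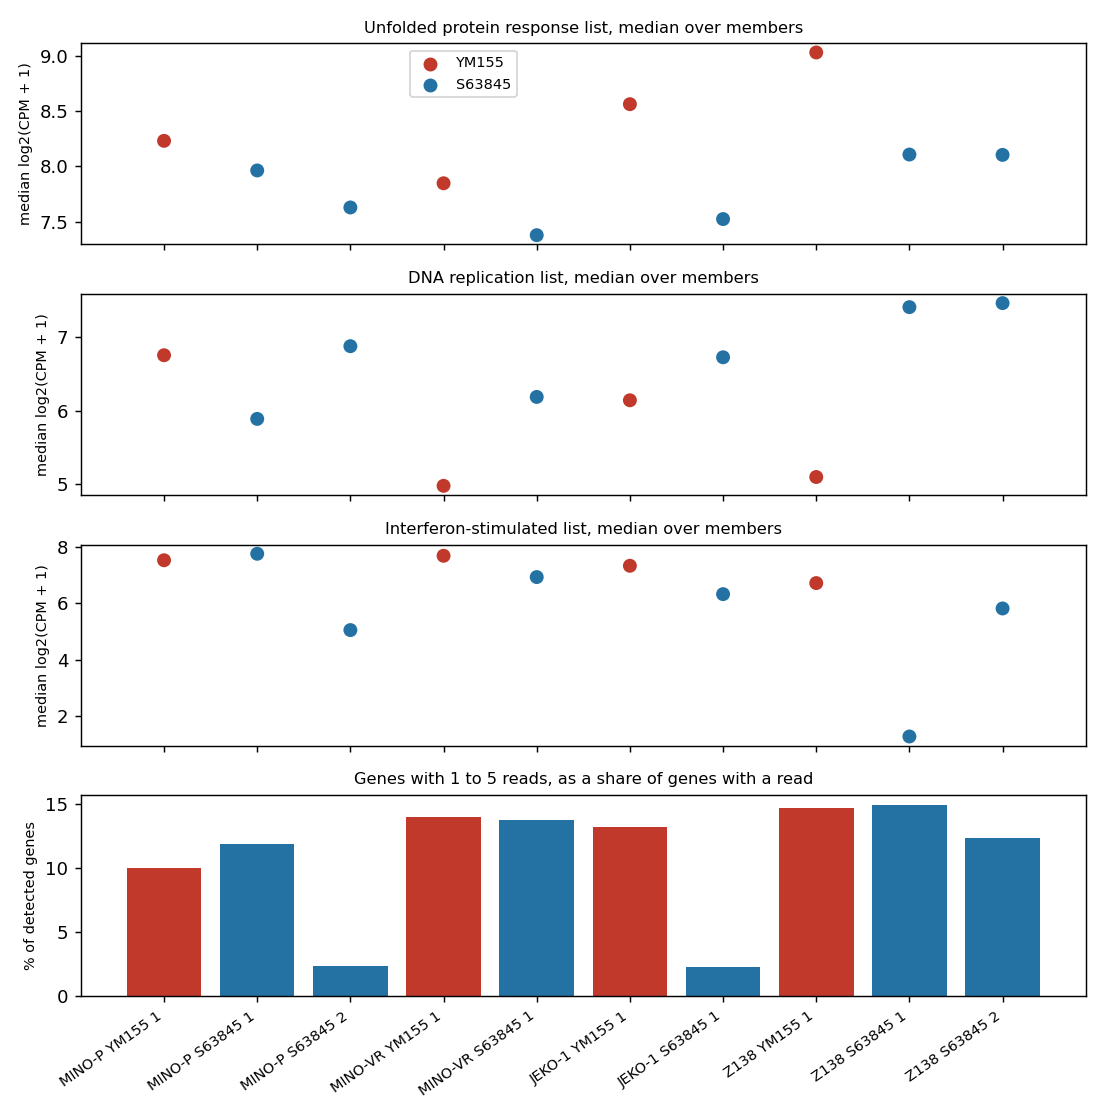
The upper 3 panels give the median log2(CPM + 1) (vertical) over the members of the unfolded protein response, DNA replication and interferon lists in each of the 10 libraries (horizontal), and the lowest panel the share of detected genes with 1 to 5 reads. YM155 is above S63845 in every line for the unfolded protein response, while the interferon list spans 1.28 to 5.82 between the S63845 replicates of Z138, and the low bars at 2.36% and 2.27% are the 2 S63845 libraries that stood apart.

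Whether the difference between the agents varied between lines was asked with an F-test over the 4 line differences, whose residual spread rests on the S63845 pairs of MINO-P and Z138 alone. It called 0 genes in limma (0%), with 1867 (12.8%) at an unadjusted p under 0.05. For Z138 against the mean of the other 3 lines, limma also called 0 genes (0%), with 2092 (14.4%) lower in Z138 and 350 (2.41%) higher at an unadjusted p under 0.05.

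Heat shock genes, most of which encode cytosolic chaperones and co-chaperones, were high in the Z138 YM155 library. In Z138 16 of 16 were positive, with a line median of 1.76, against −0.11 in MINO-P, 0.03 in MINO-VR and 0.01 in JEKO-1. Of the 16, 9 were higher in Z138 than in the other lines at an unadjusted p under 0.05, against 2.41% of all genes. DNAJB1 was at 2987 CPM with YM155 against 145 and 547.6 with S63845 in Z138, and HSPB1 at 4946 against 483.3 and 1100. HSP90AA1 was at 12890 CPM against 2225 and 3092 there, and between 2656 and 3226 CPM in all 7 libraries of the other lines. The co-chaperone BAG3 was at 539.3 CPM against 35.5 and 120.7. The median level of the list in Z138, members below the filter included, was 10.1 with YM155, 7.19 and 9.10 with S63845 and 7.08 and 7.77 in CON, so the library with the suffix A was again the higher in both groups. Against the S63845 library with that suffix, the median member difference was 1.35, with 13 of 16 positive, and against the other 2.23. Each of the 4 named genes was above both S63845 libraries of Z138, and their Z138 excess over the other lines was 3.67, 3.23, 2.23 and 2.81, with limma adjusted p-values of 0.247, 0.232, 0.25 and 0.275.

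The same Z138 library was low in replication genes and in some B-cell genes. RRM2, MCM6 and the checkpoint mediator CLSPN had a Z138 difference minus the other lines' mean of −3.62, −3.28 and −2.47, all with a limma adjusted p of 0.232, and 19 of 26 replication genes were lower in Z138 at an unadjusted p under 0.05, against 14.4% of all genes. BTK, the kinase downstream of the B-cell receptor, was at 10.21 CPM with YM155 against 90.34 and 71.48 in Z138 and at 218.2 against 180.6 and 171.2 in MINO-P, with a Z138 difference minus the others' mean of −2.96 (limma adjusted p = 0.232). Of 24 B-cell receptor and identity genes, 6 were lower in Z138 and 1 higher at an unadjusted p under 0.05, against 14.4% and 2.41% of all genes. With 1 YM155 library in Z138, its line and its library cannot be told apart.

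**Figure D5:**
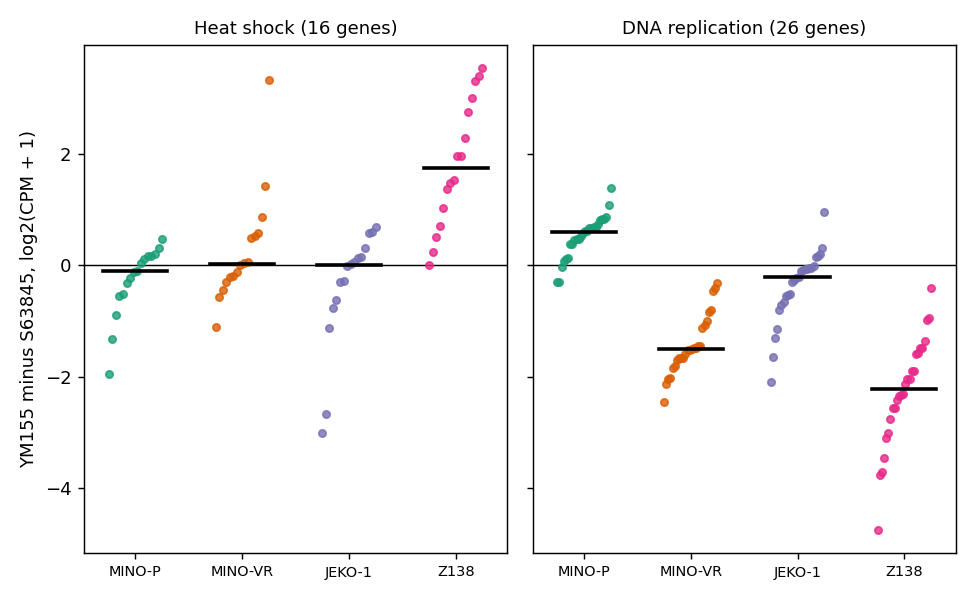
YM155 minus S63845 in log2(CPM + 1) (vertical) for each member of the heat shock and DNA replication lists, by cell line (horizontal), with a bar at the line median. Heat shock genes lie around 0 in 3 lines and at a median of 1.76 in Z138, and replication genes lie at a median of 0.59 in MINO-P and −2.22 in Z138.

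Genes of the integrated stress response were highest with YM155 in JEKO-1. Of 26 ATF4 and amino acid stress genes, 6 were higher and 1 lower at an unadjusted p under 0.05, against 8.28% and 5.53% of all genes, with a median of 0.26 over lines. All 26 were positive in JEKO-1, with a line median of 1.78, against 0.03 in MINO-P, −0.41 in MINO-VR and 0.05 in Z138. Without the 2 libraries that stood apart, and so without JEKO-1, the list gave a median of −0.24, with 1 member higher and 3 lower, against 4.83% and 6.1% of all genes. DDIT3 (CHOP), the transcription factor induced by prolonged stress, was at 69.31 CPM against 73.64 and 16.67 in MINO-P, 40.53 against 18.59 in MINO-VR, 253 against 67.99 in JEKO-1, and 160.1 against 47.93 and 69.28 in Z138. YM155 was highest in 3 lines, by 1.32 overall (SE 0.37, limma adjusted p = 0.27) and by 0.88 without the 2 libraries that stood apart. ATF3 differed by 1.59 (SE 0.53), the pseudokinase TRIB3 by 0.91 (SE 0.37) and the cysteinyl-tRNA synthetase CARS1 by 0.78 (SE 0.27). These were 1.16, 0.36 and 0.45 without the 2 libraries. ATF5 was the lower member at −0.74 (SE 0.28).

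Of 24 B-cell identity genes, 6 were lower with YM155 at an unadjusted p under 0.05, against 5.53% of all genes, 0 were higher and 18 did not pass. The median of the list was −0.47. Line medians were −0.19 in MINO-P, −0.25 in MINO-VR, −0.35 in JEKO-1 and −1.08 in Z138. In MINO-P the median was 0.29 against S63845 replicate 1, with 18 of 24 members positive. Against replicate 2, which stood apart, it was −0.43, with 8 positive. CD79B, a signalling chain of the B-cell receptor, was at 246.8 CPM against 285.7 and 705.2 in MINO-P, 340.7 against 462 in MINO-VR, 101.5 against 173.4 in JEKO-1, and 49.63 against 97.28 and 112.6 in Z138. It was lowest with YM155 in each line, by −0.81 (SE 0.25, limma adjusted p = 0.28). SPIB, an ETS factor of B cells, differed by −1.30 (SE 0.31) and was lowest in each line too. POU2AF1 (OCA-B), IKZF1 (IKAROS) and PAX5 differed by −1.42 (SE 0.42), −1.32 (SE 0.48) and −1.01 (SE 0.42), and without Z138 by −0.94, −0.73 and −0.27. In Z138 PAX5 was at 28.47 CPM against 187.6 and 239.5. Without the 2 libraries that stood apart, 2 of 24 were lower, against 6.1% of all genes, with a median of −0.37. In the IBR pair 23 of 24 were positive, the opposite sign to the single agents, and in the BTZ pair 12 of 24. Of all genes, 55% and 36.5% were positive in these pairs.

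The counts of the remaining groups are read against 8.28% of all genes higher and 5.53% lower. Here 4 of 26 proteasome subunits were higher at an unadjusted p under 0.05 and 0 lower, with a median of 0.21, and PSMC4, an ATPase of the regulatory particle, differed by 0.54 (SE 0.16). Of the 26, 1 was higher without the 2 libraries that stood apart, against 4.83% of all genes. Of 6 metallothionein and zinc-response genes tested, 2 were higher: MT2A by 1.66 (SE 0.55, and 1.12 without the 2 libraries) and its activator MTF1 by 0.67 (SE 0.24). NRF2 targets had 2 of 18 higher and 0 lower, with a median of 0.16. Ribosome biogenesis genes had 0 of 22 higher and 4 lower, with a median of −0.35. Nuclear-encoded oxidative phosphorylation subunits had 3 of 26 higher and 0 lower, with a median of −0.08. Immediate early genes had 3 of 20 higher and 1 lower, and NF-kB targets 1 of 22 higher and 0 lower. Sterol and fatty acid synthesis genes had 1 of 21 higher and 0 lower, and glycolysis genes 3 of 25 higher and 2 lower. Of the 15 genes encoded in mitochondria, 2 were lower with a median of −0.57, and their line medians were −0.77, 0.91, −0.66 and −1.60, in the order of MINO-P, then MINO-VR, JEKO-1 and Z138. The mitochondrial share of each library was 6.45% ± 1.98 (SD, n = 4) with YM155 and 8.39% ± 4.84 (SD, n = 6) with S63845. The line-averaged difference was −2.68 percentage points (exact two-sided permutation within lines, p = 0.528, where the smallest p the 36 arrangements allow is 0.0278), and the JEKO-1 S63845 library held 17.5%. Without JEKO-1 the difference was 0.03 percentage points.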

How the data were processed

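Per the labels' protocols, poly-A libraries were made with the TruSeq kit and sequenced. The submitters' processing notes name Partek and hg38, and the aligner, counter, annotation and strand setting are not given in the sources used here. The deposited values were log2 values, which the authors had made as log2(CPM + 1): undone, they summed to 999995.7 to 999999.0 CPM per library. Depth was recovered from the steps of low CPM values, of which 78.1% to 83.9% were whole reads within 0.05, so no count test was run, and 3 reads were worth 0.139 to 0.248 CPM. Differences were fitted with limma 3.58.1 in R 4.3.3 (trended variance, cell line as block, Benjamini-Hochberg adjustment over the genes that reached 1 CPM in 2 of the 10 libraries). The fit was also run on simulated data, with noise independent between genes and of less spread than most genes had here. That run therefore does not show how the fit performs on these libraries. Named genes were the 8 of smallest p per direction with the same direction in all 4 lines, since 0 were called, plus members of the apoptosis lists. Other list members were named after their values were seen. The gene lists and members were chosen with earlier results of these data known. Transcript GC content and length came from the reference annotation given with the data. Some genes and a gene list are not reported here. One entry with no gene name was left out (at most 0.00077% of a library).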

Additional observations from a re-analysis of the deposited data

Results flagged for a closer look

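For 11 gene lists the YM155 library of MINO-P lay on one side of both S63845 libraries and that of Z138 on the other side, by the median level of the tested members in each library. The difference between the lines was not tested. Each first value below is the Z138 difference of these median levels (YM155 minus the mean of S63845, in log2 units) minus the MINO-P difference. A median level can move because another gene takes the middle rank, so the median over the members' own differences, which does not depend on that rank, is given beside it. Replicate 2 of S63845 in MINO-P, which stood apart, enters every one of these values.

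For 7 lists both measures had the same signs. The mitosis list gave −1.84, from 0.55 in MINO-P to −1.29 in Z138, with member medians of 0.44 and −1.62. Against replicate 2 of S63845 alone, its member median in MINO-P was 0.004. The homologous recombination list gave −2.25, from 0.43 to −1.82, with 0.65 and −2.05. Heat shock genes gave 2.43, from −0.26 to 2.17, with −0.11 and 1.76. NRF2 targets gave 0.47, from −0.23 to 0.24, with −0.31 and 0.60. Glycolysis and hypoxia genes gave −0.82, from 0.39 to −0.43, with 0.32 and −0.10. Their member medians changed sign with the S63845 replicate in both lines. Against replicates 1 and 2 they were −0.02 and 0.58 in MINO-P, and 0.06 and −0.19 in Z138. NF-kB targets gave −2.22, from 0.58 to −1.64, but the member medians were 0.65 and −0.29, and the S63845 libraries of Z138 themselves had median levels of 4.26 and 2.53, members below the filter included. The inhibitors of apoptosis gave −1.80, from 0.65 to −1.15, with much smaller member medians of 0.26 and −0.16.

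In the other 4 lists the member medians had the same sign in both lines or were close to 0 in Z138. B-cell receptor and identity genes gave −1.44, from 0.05 to −1.39, while the member medians were −0.19, with 9 of 24 positive, and −1.08. The MINO-P sign depended on the S63845 replicate. Against replicate 1 the member median was 0.29, with 18 of 24 positive, and against replicate 2 it was −0.43, with 8 positive. ATF4 and amino acid stress genes gave −0.37, from 0.27 to −0.10, while the member medians were 0.03 and 0.05, with 14 of 26 positive in Z138. With NUPR1, which was below the filter, included, the Z138 YM155 library (median level 7.91) lay between the S63845 libraries (7.99 and 7.78). The BH3-only and effector list gave 0.88, from −0.45 to 0.43, while the member median in Z138 was 0.003, with 5 of 9 positive. The mantle cell lymphoma B-cell markers gave 1.55, from −0.64 to 0.91, while the member medians were −0.42 and −0.004, with 3 of 7 positive in Z138, where their summed level was 2015 CPM with YM155 against 3506 and 3419 with S63845.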

How the results depend on the processing

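Limma called 0 genes over the 4 lines in 26 of 27 alternatives, and 1 with all 56 libraries. Of 1916 values of 71 genes, 1900 kept direction and side of the threshold and 15 changed sign. No gene was under the threshold in the main fit, and 16 of the genes were chosen for the same sign in all 4 lines. These counts were therefore largely set in advance and do not describe sizes. MCM6 ran from −1.99 without MINO-P to −0.36 without Z138, while ANXA5 ran from 0.76 to 0.89. Unadjusted counts of higher genes were 771 with all 56 libraries, 420 with no line block, 775 without Z138 and 702 without the 2 libraries that stood apart. Those of lower genes were 441, 280 and 254 under the first 3 of these, and 345 to 1122 with single libraries left out, the lowest without the Z138 YM155 library and the highest without the MINO-P one. Unfolded protein response members numbered 8 with no block, 7 without the 2 libraries and 9 to 15 with single libraries left out. Replication members numbered 8 with no filter, 7 with all 56 libraries, 7 with no block, 6 with array weights, 0, 7, 2 and 22 without Z138, JEKO-1, MINO-VR and MINO-P, 5 without the 2 libraries and 1 to 23 with single libraries left out. Interferon members numbered 6 with no filter, 5 with all 56, 24 with replicates averaged, 2 with array weights, 1 without JEKO-1, 2 without Z138, 0 without the 2 libraries and 1 to 21 with single libraries left out. MCL1 turned to −0.006 with mitochondrial genes left out, −0.017 without Z138, −0.036 with the GC trend and −0.01 with the length trend removed, and ran from −0.022 to 0.096 with single libraries left out. SLC35F2 turned to −0.029 without JEKO-1 and −0.133 without the 2 libraries, with −0.029 to 0.383 for single libraries. BIRC3 turned to 0.001 with no block, 0.319 with array weights and 0.405 without Z138, with −0.653 to 0.405 for single libraries. MANF turned to −0.044 without the 2 libraries. With no filter, which let 20710 genes in, limma called 1126 genes between lines and 618 for Z138, of which 115 and 95 pass the filter, and BTK had an adjusted p of 0.0471 (0.0471 to 0.603 over alternatives). The mitochondrial share differed by 0.03 percentage points without JEKO-1, with −4.86 to 0.03 for single libraries. The causes were not tested. The GC, length and 2-library alternatives were chosen after seeing the data. No paired analysis was possible because YM155 has 1 library per line and the suffix A of library names occurs, among the 10, in Z138 alone, so the cell line served as block. Depth limits values near 0.139 to 0.248 CPM.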
